A study of Drosophila melanogaster with 2 samples.

Results

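The genes described here are the serum response factor (SRF) gene *bs*, its coactivator gene *Mrtf*, and 8 regulators known to set or maintain the fate of the *Drosophila* indirect flight muscles (IFMs): *salm*, *salr*, *exd*, *hth*, *vg*, *sd*, *Mef2* and *bru1*. They were chosen by name, with earlier results of these data known, and are 10 of the 13931 genes in the deposited table. All 10 were detected, meaning that they reached 1 TPM (transcripts per 1000000 transcripts) in at least one library, as did 6384 genes in all (45.8%). The study used RNA sequencing to look for genes that depend on *bs* in flight muscle. There are 2 libraries. The *bs* knockdown (KD) library, genotype 1151>bs[RNAi KK108659], came from flies in which the 1151-Gal4 driver expressed a double-stranded RNA against the *bs-RA* and *bs-RC* transcripts. The control library, genotype 1151/+, came from flies that carried the same driver crossed to w1118 and no RNAi construct. In both, IFMs of 4 females aged 3 days were pooled into 1 sample, and polyadenylated RNA was sequenced.

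Each genotype is a single library, so no difference below has a replicate check, and no test or standard deviation is given. The libraries held 19767477 estimated reads in *bs* KD and 20955053 in the control. Every ratio is *bs* KD over control, and each level or ratio has an exact 95% interval from the estimated reads, which covers counting error only. Log2 differences were taken after adding 1 TPM to both values, which brings weakly expressed genes closer to 0. The median log2 difference was 0.13 over the 1804 genes that reached 10 TPM in each library, and differences are also given relative to that shift. Because 1151-Gal4 drives expression from the myoblast stage on, the knockdown was not limited to mature muscle. Reads from the RNAi construct that carry *bs* sequence would have been counted with *bs*. The bulk tissue also holds cells other than muscle, and fewer cells of a type cannot be told apart from less RNA per cell.

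SRF is a MADS-domain transcription factor that binds CArG boxes, and its coactivator Mrtf is held in the cytoplasm by monomeric actin and released when actin is assembled into filaments. In this way SRF links the state of the actin cytoskeleton to transcription, including that of actin genes. Flight muscles of *Drosophila* are fibrillar, unlike the tubular muscles of the leg and the jump muscle. That fate is set by Exd and Hth, homeodomain proteins that act together and genetically upstream of *salm*, and by Vg, and the fate is carried out by the Spalt proteins and by RNA-binding proteins that select flight muscle splice forms.

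The SRF gene *bs* (FBgn0004101) is placed on the plus strand of 2R, at 24342861 to 24376473, by the BDGP6.54 annotation of genome Release 6, which gave all positions below. It stood at 1.80 TPM in *bs* KD (interval 1.46 to 2.19, 98.3 estimated reads), against 2.75 TPM in the control (2.32 to 3.22, 148 reads). The ratio was 0.656 (0.503 to 0.852), a log2 difference of -0.42, or -0.55 relative to the shift. *bs* was thus lower in *bs* KD, with transcript left in the library. This ratio counts all *bs* isoforms together. By quantitative RT-PCR on *bs-RA* and *bs-RC* alone, the paper reported a much larger reduction in knockdown flight muscle. The cause of the gap between the measures was not tested. Among the 4373 detected genes that had less than 10 TPM in the control, 918 had a log2 difference as low or lower. *bs* was also the least abundant of the 10 genes in the control, and ninth of 10 in *bs* KD.

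The annotation gives *bs* 3 transcripts. TPM divides reads by transcript length, so the reads and TPM of a gene together give the mean effective length of its transcripts, weighted by their abundance. For *bs* that length was 2985 bases in *bs* KD and 2975 bases in the control. The effective lengths of the annotated transcripts are 2122 bases for *bs-RA*, 2963 for *bs-RC* and 3693 for *bs-RB*. Those lengths allow *bs-RB*, which the RNAi construct does not target, any share of the *bs* transcripts between 2.95% and 54.9% in *bs* KD, and between 1.70% and 54.3% in the control. The mean length therefore leaves the mix of isoforms undetermined within those bounds in both libraries. If all reads came from annotated transcripts, the remainder in each library was *bs-RA* and *bs-RC*, which the construct targets. On that condition, targeted transcripts were still present in *bs* KD even with *bs-RB* at its upper bound of 54.9%. Reads from the construct itself could not be separated.

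*Mrtf* (FBgn0052296) lies on 3L, from 2717615 to 2766536 on the minus strand. It had 2.95 TPM in *bs* KD (2.67 to 3.26, 392 reads), against 6.07 TPM in the control (5.65 to 6.51, 769 reads). *Mrtf* was 2.05-fold lower in *bs* KD (1.82 to 2.33), a log2 difference of -0.84, or -0.96 relative to the shift. By its ratio the coactivator gene stood further below the control than *bs*: the ratio of *Mrtf* to *bs* was 1.64 in *bs* KD and 2.21 in the control. The ratio of these ratios was 0.742 (0.555 to 0.997), so its interval reached almost to 1. The separate intervals, 0.430 to 0.550 for *Mrtf* and 0.503 to 0.852 for *bs*, overlapped. With the median of each gene length class removed, the log2 differences were -0.61 for *Mrtf* and -0.37 for *bs*. The order of the 2 genes is therefore uncertain. Of the 4373 detected genes with less than 10 TPM in the control, 323 (7.39%) were as low as *Mrtf* or lower.

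**Figure D1:**
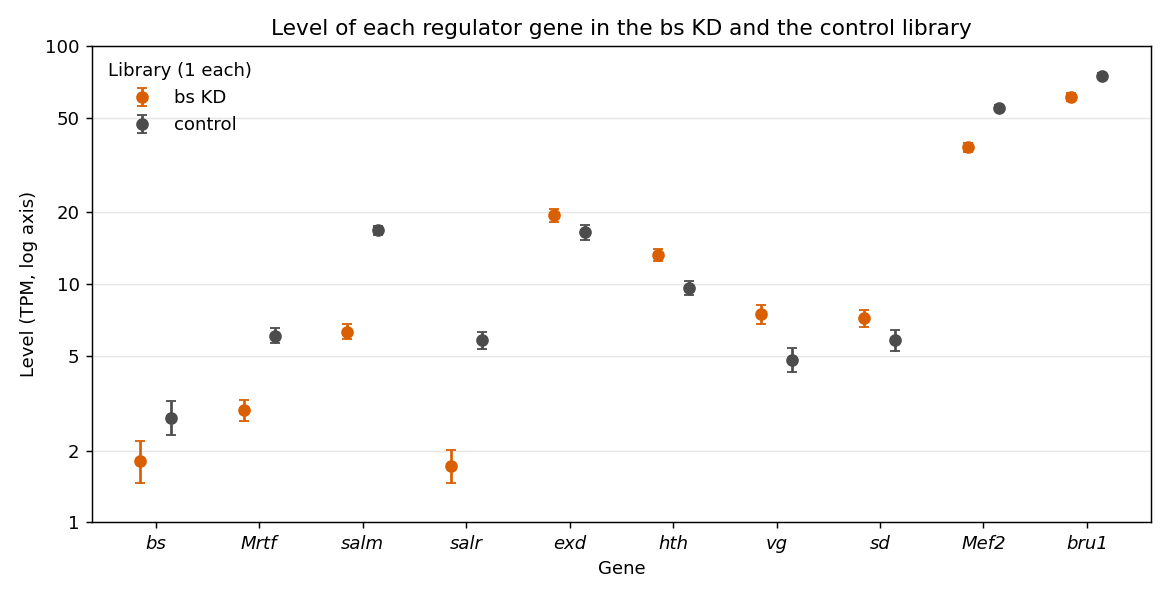
Level of each of the 10 genes in the *bs* KD and control libraries, in TPM on a log axis, with exact 95% counting intervals as bars and 1 library per genotype. *salm*, *salr* and *Mrtf* lie furthest below the control (6.31 against 16.8, 1.72 against 5.80 and 2.95 against 6.07 TPM), and *exd*, *hth*, *vg* and *sd* lie above it.

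Other genes of the SRF and Mrtf pathway were taken from a list of 11, all of them detected. In *bs* KD 3 were higher by 2-fold or more and 0 were lower, with a median log2 difference of 0.15. Over all detected genes 9.38% were higher and 6.05% were lower by 2-fold, with a median of 0.07. The 3 higher genes act on actin filaments. *capt*, the cyclase-associated protein that recharges actin monomers, had 51.4 TPM in *bs* KD and 8.64 TPM in the control. *tsr*, the cofilin that severs filaments, had 168 TPM in *bs* KD and 76.1 TPM in the control, and *ssh*, the phosphatase that activates cofilin, had 9.67 TPM in *bs* KD and 3.67 TPM in the control. These genes encode proteins that turn actin over. The lowest of the 11 was the cytoplasmic actin gene *Act5C*, at 21.2 TPM in *bs* KD and 39.5 TPM in the control (log2 -0.87). The gene *dia*, which encodes a formin that assembles filaments, had 0.935 TPM in *bs* KD and 1.46 TPM in the control.

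The Spalt genes had the lowest ratios of the 10. *salm* (FBgn0261648) encodes a zinc-finger transcription factor required for fibrillar flight muscle fate and lies on 2L, from 11434311 to 11445614 on the minus strand. It had 6.31 TPM in *bs* KD (5.86 to 6.81, 693.5 reads), against 16.8 TPM in the control (16.0 to 17.6, 1832 reads). *salm* was 2.66-fold lower in *bs* KD (2.44 to 2.91), with a log2 difference of -1.28, or -1.41 relative to the shift. By abundance it ranked 2785th in *bs* KD and 1466th in the control. Among the 1549 genes with 10 to 100 TPM in the control, 89 (5.75%) were as low or lower.

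*salr* (FBgn0000287), the paralog of *salm*, lies on 2L, from 11358873 to 11373636 on the plus strand. It had 1.72 TPM in *bs* KD (1.46 to 2.01, 156 reads), against 5.80 TPM in the control (5.31 to 6.31, 530 reads). *salr* was 3.36-fold lower in *bs* KD (2.81 to 4.05), with a log2 difference of -1.32, or -1.44 relative to the shift. This was the lowest ratio among the 10 genes, and 98 of the 4373 genes with less than 10 TPM in the control (2.24%) had a log2 difference as low or lower. The pseudocount compresses the log2 difference of *salr* more than that of *salm*, which is why the log2 values are close while the ratios are 0.297 (0.247 to 0.356) for *salr* and 0.376 (0.344 to 0.410) for *salm*.

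*salr* and *salm* are convergent neighbours, with 60674 bp between them. Of the genes annotated in that interval and within 30000 bp on either side, 1 protein-coding gene other than the pair, *CG14926*, is in the table and is listed at 0 in both libraries. The long noncoding RNAs annotated there were not analysed here. Within each library *salm* stayed the more abundant of the pair, with a *salr* to *salm* ratio of 0.273 in *bs* KD and 0.345 in the control. The ratio of these ratios was 0.791 (0.644 to 0.968). Both paralogs were lower, and *salr* by slightly more than *salm* beyond counting error.

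*exd* and *hth* stood on the other side of the control. *exd* (FBgn0000611) encodes the Pbx-type homeodomain protein and lies on X, from 15992468 to 15996509 on the plus strand. It had 19.5 TPM in *bs* KD (18.2 to 20.8, 901 reads), against 16.5 TPM in the control (15.4 to 17.8, 739 reads). The ratio was 1.18 (1.07 to 1.30), a log2 difference of 0.22 that shrank to 0.10 relative to the shift. *exd* was therefore close to the control, and 652 of the 1549 genes with 10 to 100 TPM in the control (42.1%) were as high or higher.

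*hth* (FBgn0001235) encodes the Meis-type homeodomain protein that brings Exd into the nucleus and lies on 3R, from 10507561 to 10639568 on the minus strand. It had 13.2 TPM in *bs* KD (12.5 to 14.0, 1187 reads), against 9.60 TPM in the control (8.96 to 10.3, 828 reads). The ratio was 1.38 (1.26 to 1.51), a log2 difference of 0.43, or 0.30 relative to the shift. An exon of *hth* overlaps the antisense gene *asRNA:CR44018*, and since use of strand is not stated, reads of that stretch cannot be told apart. The ratio of *hth* to *exd* was 0.680 in *bs* KD and 0.581 in the control, with a ratio of ratios of 1.17 (1.02 to 1.34). The genetically upstream pair and *salm* thus separated: the *hth* to *salm* ratio was 2.10 in *bs* KD and 0.572 in the control, a difference of 3.67-fold (3.23 to 4.16).

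Exd and Hth act with Hox proteins and with Tsh. Of the 7 genes listed beside *exd* and *hth* (*Antp*, *Ubx*, *abd-A*, *tsh*, *tio*, *achi* and *vis*), not all encode such partners. None of the 7 reached 1 TPM in either library. Their levels summed to 0.887 TPM in *bs* KD and 1.25 TPM in the control, and *tio* was listed at 0 in both. The one whose counting interval excluded 1 was *tsh*, named after its values were seen, at 0.238 TPM in *bs* KD and 0.465 TPM in the control (20.1 and 39.1 reads, ratio 0.511, 0.282 to 0.898). For the other genes with reads in both libraries the interval included 1.

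*vg* and *sd* were higher in *bs* KD as well. *vg* (FBgn0003975) encodes the cofactor that selects wing and flight muscle fate and lies on 2R, from 12884201 to 12899385 on the plus strand. It had 7.47 TPM in *bs* KD (6.80 to 8.19, 459 reads), against 4.81 TPM in the control (4.28 to 5.40, 294 reads). The ratio of 1.55 (1.34 to 1.80) was the highest among the 10 genes, with a log2 difference of 0.54, or 0.42 relative to the shift. Even so, 1018 of the 4373 genes with less than 10 TPM in the control (23.3%) were as high or higher.

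*sd* (FBgn0003345) encodes the TEAD-family DNA-binding protein that carries Vg or Yki to DNA and lies on X, from 15804370 to 15827682 on the plus strand. It had 7.18 TPM in *bs* KD (6.58 to 7.80, 539 reads), against 5.81 TPM in the control (5.25 to 6.40, 398 reads). The ratio was 1.23 (1.08 to 1.41), a log2 difference of 0.26, or 0.14 relative to the shift. *sd* has 22 annotated transcripts, and its mean effective transcript length was 4116 bases in *bs* KD and 3781 bases in the control. That difference of 8.88% was the widest in length among the 10 genes, and 7.20% of the 3638 genes with more than 100 reads in both libraries differed by more than 5%. Of its partners in the Hippo pathway, 6 of 6 listed genes were detected and none differed by 2-fold, with a median log2 difference of -0.06. They ranged down to the kinase gene *wts*, at 3.23 TPM in *bs* KD and 3.79 TPM in the control, and up to *mats*, which encodes an activator of that kinase, at 4.54 TPM in *bs* KD and 3.60 TPM in the control.

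*Mef2* (FBgn0011656) encodes a MADS-domain factor, like SRF, that drives muscle differentiation in general. It lies on 2R, from 9913496 to 9958858 on the minus strand. It had 37.5 TPM in *bs* KD (36.0 to 39.0, 2453 reads), against 54.9 TPM in the control (53.1 to 56.8, 3486 reads). The ratio was 0.683 (0.649 to 0.720), a log2 difference of -0.54, or -0.66 relative to the shift. Its counting interval was narrow because *Mef2* had many reads, and 306 of the 1549 genes with 10 to 100 TPM in the control (19.8%) were as low or lower. Its ratio was near that of *bs*, 0.656, and the intervals of the 2 ratios overlapped.

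*bru1* (FBgn0000114) encodes a CELF-family RNA-binding protein that selects flight muscle splice forms downstream of *salm*. It lies on 2L, from 12175004 to 12313438 on the plus strand. It had 61.1 TPM in *bs* KD (59.0 to 63.2, 3263 reads), against 74.7 TPM in the control (72.4 to 77.0, 3946 reads). The ratio was 0.818 (0.780 to 0.857), a log2 difference of -0.29, or -0.41 relative to the shift. *bru1* was the most abundant of the 10 in both libraries and nearer to the control than *Mef2*: the *Mef2* to *bru1* ratio was 0.614 in *bs* KD and 0.735 in the control, with a ratio of ratios of 0.835 (0.779 to 0.896). Of 5 other muscle RNA-binding genes 3 were detected and none differed by 2-fold. They lay between *bru2*, a paralog of *bru1*, at 10.1 TPM in *bs* KD and 11.3 TPM in the control, and *Rbfox1*, a splicing factor, at 9.67 TPM in *bs* KD and 7.03 TPM in the control. The undetected genes were *mbl* and *bru3*. *mbl* had 0.00841 TPM in *bs* KD and 0.163 TPM in the control (1.12 and 22.3 reads, ratio 0.0516, 0.00125 to 0.319). The ratio of *bru3* was 1.21 (0.109 to 8.42).

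Of 13 other muscle transcription factor genes 6 were detected, and *twi*, *nau* and *Six4* were listed at 0 in both libraries. None differed by 2-fold after the pseudocount, and their median log2 difference was -0.27. The highest was *ewg*, a nuclear respiratory factor homolog needed for flight muscle, at 3.80 TPM in *bs* KD and 1.96 TPM in the control. The lowest was *org-1*, a T-box gene of muscle founder cells, at 0.498 TPM in *bs* KD and 1.51 TPM in the control.

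Read together, 6 of the 10 genes were lower and 4 were higher in *bs* KD. At 2-fold or more on the log2 scale 2 were lower (*salm* and *salr*) and 0 were higher, where 6.05% and 9.38% of all detected genes were lower and higher. Without the pseudocount *Mrtf* also passed 2-fold, which made 3. Of the 6 genes with less than 10 TPM in the control, *salr* was the 1 that was lower by 2-fold, against 4.96% lower and 8.99% higher among all detected genes of that level. Of the 4 with 10 to 100 TPM, *salm* was the 1, against 8.52% lower and 12.5% higher. The split over all genes depends on scaling: it was 7.35% higher and 7.09% lower with *bs* KD divided by the median ratio, and 6.16% higher and 7.28% lower with the median of each gene length class removed.

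**Figure D2:**
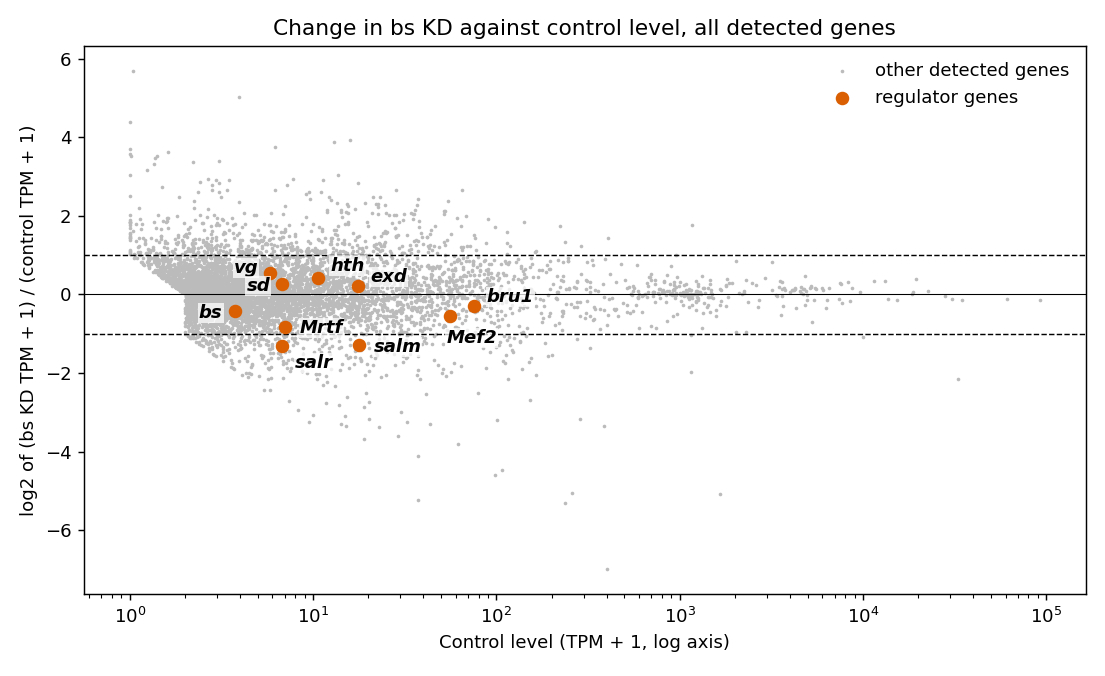
Log2 difference between *bs* KD and control (1 TPM added to each) against the control level on a log axis, for every detected gene in gray and the 10 regulator genes in orange, with dashed lines at 2-fold. *salm* (-1.28) and *salr* (-1.32) lie below the lower dashed line, and the other 8 regulators lie between the lines.

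The counting intervals of all 10 ratios excluded 1, with 4 above 1 and 6 below. That is a weak criterion at this depth, since 68.8% of all detected genes met it, 38.6% above 1 and 30.1% below. With *bs* KD divided by the median ratio, the intervals of *exd* and *sd* included 1 and those of the other 8 did not. The median log2 difference of the 10 genes was -0.35, beside 0.07 over all detected genes. Their levels summed to 158.7 TPM in *bs* KD and 197.8 TPM in the control.

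The order of the genes by level differed between the libraries. In *bs* KD it ran *bru1*, *Mef2*, *exd*, *hth*, *vg*, *sd*, *salm*, *Mrtf*, *bs* and *salr*. There the intervals of *vg*, *sd* and *salm* overlapped each other, as did those of *bs* and *salr*. In the control it ran *bru1*, *Mef2*, *salm*, *exd*, *hth*, *Mrtf*, *sd*, *salr*, *vg* and *bs*. There *salm* overlapped *exd*, and *Mrtf*, *sd* and *salr* overlapped each other, as did *sd*, *salr* and *vg*. *salm* was 7th in *bs* KD and 3rd in the control, and *vg* was 5th in *bs* KD and 9th in the control.

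Ratios between members of the same library do not depend on how the libraries are scaled. They were formed for 9 pairs, chosen after the values were seen. The widest differences were those of *vg*, *hth*, *exd* and *Mef2* over *salm*. The *vg* to *salm* ratio was 1.18 in *bs* KD and 0.286 in the control, a difference of 4.13-fold (3.47 to 4.92). The *exd* to *salm* ratio was 3.08 in *bs* KD and 0.984 in the control, a difference of 3.13-fold (2.74 to 3.58). *Mef2*, which was itself lower, still gained on *salm*, with a ratio of 5.94 in *bs* KD and 3.27 in the control, a difference of 1.82-fold (1.64 to 2.02). Between partners the differences were smaller, as for *vg* to *sd* at 1.04 in *bs* KD and 0.828 in the control (1.26-fold, 1.03 to 1.54).

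**Figure D3:**
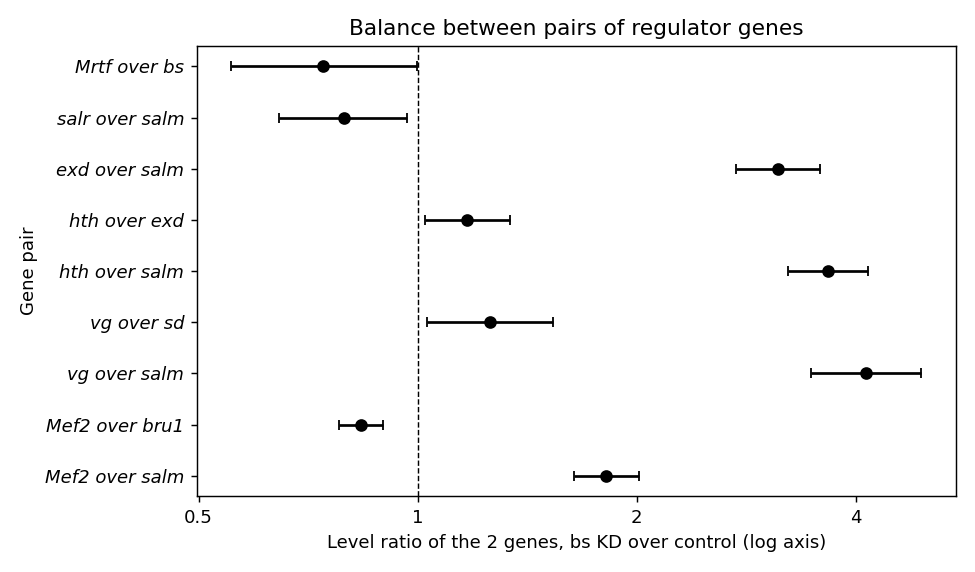
Ratio of the *bs* KD to the control value of 9 gene-to-gene level ratios, on a log axis with exact 95% counting intervals. The 4 ratios with *salm* as denominator and *exd*, *hth*, *vg* or *Mef2* above it lie between 1.82 and 4.13, and the other 5 lie between 0.742 and 1.26.

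The muscle protein genes listed beside these regulators did not share one direction. Whether the regulators control each of them was not tested, and levels per gene do not show splice forms. Of 8 flight muscle genes, all detected, 1 was lower by 2-fold and none was higher, with a median log2 difference of 0.28. The lower one was the flight muscle actin gene *Act88F*, at 7471 TPM in *bs* KD and 33116 TPM in the control (log2 -2.15). The highest was *Mf*, which encodes the thick filament protein myofilin, at 354.7 TPM in *bs* KD and 196.1 TPM in the control (log2 0.85). Of 6 genes of tubular muscle 3 were detected and 2 were higher by 2-fold: the actin gene *Act57B*, at 31.5 TPM in *bs* KD and 2.08 TPM in the control, and the troponin C gene *TpnC41C*, at 21.3 TPM in *bs* KD and 1.96 TPM in the control. The jump muscle actin gene *Act79B* had 19.5 TPM in *bs* KD and 18.9 TPM in the control, far below *Act88F* in both libraries. The 3 genes under 1 TPM had lower values in *bs* KD: *Act87E* had 0.208 TPM in *bs* KD and 0.755 TPM in the control (ratio 0.276, 0.0907 to 0.713), *TpnC73F* had 0.0709 TPM in *bs* KD and 0.449 TPM in the control (0.158, 0.00356 to 1.18), and *TpnC47D* was listed at 0 in *bs* KD and had 0.736 TPM in the control.

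**Figure D4:**
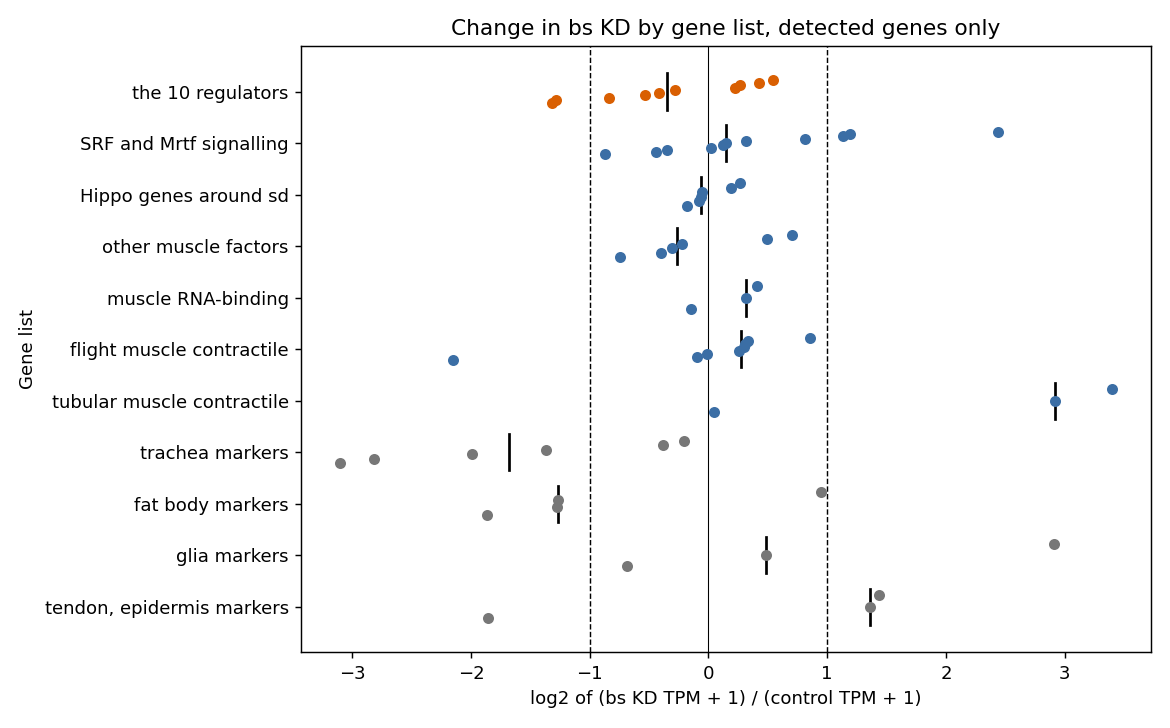
Log2 difference between *bs* KD and control for each detected gene of the 10 regulators and of the companion and marker lists with at least 3 detected genes (heights within a list only spread the points), with the median of each list as a short line and dashed lines at 2-fold. The trachea markers lie lowest as a group (median -1.68), and the flight muscle genes (median 0.28) hold *Act88F* at -2.15.

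Markers of other cells were read beside these results. Of 8 trachea markers listed, 7 were in the table and 6 were detected, all 6 with values below the control and 4 lower by 2-fold. The 7 in the table summed to 9.78 TPM in *bs* KD and 51.5 TPM in the control. The chitin deacetylase gene *verm* had 0.740 TPM in *bs* KD and 14.0 TPM in the control, and *obst-A*, *serp* and *Gasp*, which also encode chitin-associated proteins, had log2 differences of -2.82, -1.99 and -1.37. Of the genes that define tracheal cells, *trh* had 1.21 TPM in *bs* KD and 1.88 TPM in the control, a ratio of 0.643 (0.493 to 0.835), and *btl* had 1.12 TPM in *bs* KD and 1.45 TPM in the control, a ratio of 0.774 (0.565 to 1.06). *bs* is itself known for its role in tracheal terminal cells. The part of tracheal RNA in the lower *bs*, *salm*, *salr* and *Mrtf* was not tested.

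Fat body markers summed to 10.9 TPM in *bs* KD and 13.8 TPM in the control, with 4 of 6 detected. Of these *FASN1*, *Fbp1* and *Lsp2* were lower by 2-fold (log2 -1.87, -1.27 and -1.27), and the yolk protein gene *Yp1* had 9.31 TPM in *bs* KD and 4.35 TPM in the control. Hemocyte markers, of which *Ppn* was the 1 of 6 detected, summed to 3.81 TPM in *bs* KD and 4.64 TPM in the control, and neuron markers, of which *elav* was the 1 of 6 detected, to 1.93 TPM in *bs* KD and 4.19 TPM in the control. Glia markers, 3 of 5 detected, summed to 192 TPM in *bs* KD and 89.6 TPM in the control, and the glial identity gene *repo* was not detected. The sum was carried by *nrv2*, a sodium pump subunit gene, at 84.6 TPM in *bs* KD and 10.4 TPM in the control, and by *Gs2*, while *moody* was the lowest (log2 -0.69). Tendon and epidermis markers, 3 of 5 detected, summed to 15.3 TPM in *bs* KD and 8.64 TPM in the control, with *sr* and *if* higher (log2 1.44 and 1.36) and *Tsp* lower (log2 -1.86) by 2-fold. Gut and ovary markers, of which *Jon65Aiv* (log2 1.04) was the 1 of 5 detected, summed to 1.54 TPM in *bs* KD and 0.288 TPM in the control, and 2 of them were listed at 0 in both. The eye colour gene *w*, which transgenes carry as a marker, had 408.8 TPM in *bs* KD and 64.1 TPM in the control. The part of these cells and of the construct's background in the regulators' values was not tested.

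**Figure D5:**
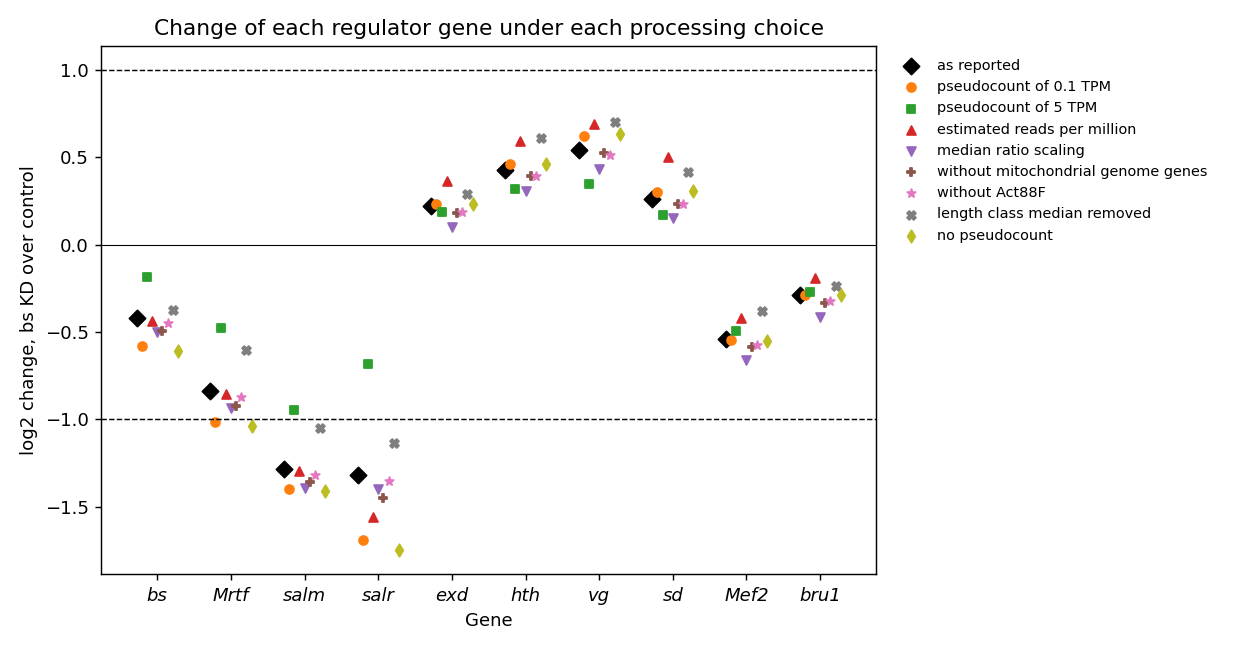
Log2 difference of each of the 10 genes as reported and under each alternative way of computing it. Every gene stays on its own side of 0, which a change of pseudocount alone could not alter, and *salr* has the widest range, -1.75 to -0.68.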

How the data were processed

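IFM RNA of 1 *bs* KD and 1 control sample was sequenced, and per the file headers the authors quantified it with Salmon, against annotation release 6.21. Versions of Salmon and DESeq2 are not given in the sources used here. The authors deposited TPM values, estimated counts of reads and other values (effective and full transcript lengths) per gene and library. The 2 full-length columns were not used. The deposited columns of a DESeq2 comparison (base mean, log2 fold change, standard error, Wald statistic, p-values) were neither used nor printed.

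Genes were matched by FlyBase ID to symbols (13842 of 13931) and to the BDGP6.54 annotation of the same assembly; 1 trachea marker, *dys*, was not matched. Log2 differences used a pseudocount of 1 TPM, detection 1 TPM in at least one library, and a size of 2-fold. Exact 95% intervals used the estimated counts rounded to whole reads (Clopper-Pearson for ratios, Poisson for levels), with Python 3.11.15, numpy 2.4.6, pandas 2.3.3 and scipy 1.17.1. The deposited effective length lay below the shortest annotated transcript for 9 of the 10 genes, so mean lengths were derived from reads and TPM, scaled on 961 single-transcript genes.

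Estimated counts were whole multiples (tolerance 0.02) of 1.11675 in *bs* KD and 1.11599 in the control for 85.5% and 86.0% of genes with reads, and for all 10 regulators. Counting intervals in those steps were an alternative added after seeing the data, as were the values without a pseudocount and the pair ratios. Other alternatives covered the pseudocount, detection, scaling, gene length, size and interval.

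Named genes are the 10 regulators, *Act88F* and, in each of 8 companion and 7 marker lists, detected genes past 2-fold and the highest and lowest. *dia*, *Act42A*, *trh*, *btl*, *repo*, *Gs2* and genes listed at 0 or undetected were named after their values were seen. The genes and lists were chosen with earlier results of these data known. Values of the other listed genes are not reported here. The intervals of single ratios, the recovery of known ratios and the search for the count step were tested on simulated data with counting noise only. The pair ratios, mean lengths, isoform bounds and length classes were not.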

Additional observations from a re-analysis of the deposited data

How the results depend on the processing

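Each genotype is 1 library, so no replicate could be left out. No paired analysis was possible because each genotype has 1 library. Every one of the 80 alternative log2 differences of the 10 genes kept its sign. A change of pseudocount cannot alter that sign, so only the other settings could have done so. Of 298 alternative values 260 stayed close to the reported value and 38 moved by more. Close meant within the counting interval for a log2 difference and within 1.5 times for a count. For the members' median it meant the same sign and a small move. Reversal was defined only for log2 differences past 2-fold, those of *salm* and *salr*, and 0 reversed. The members' median lay between -0.46 and -0.23. The low levels limit *salr*, *bs* and *Mrtf* most, because a pseudocount is large beside them.

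With a pseudocount of 0.1 TPM the log2 difference was -1.01 for *Mrtf*, -1.40 for *salm* and -1.69 for *salr*, and 2 companion genes were lower by 2-fold, where 1 was as reported. With none it was -1.04 for *Mrtf*, -1.41 for *salm* and -1.75 for *salr*, and 3 of the 10 genes were lower by 2-fold. With 5 TPM it was -0.48 for *Mrtf*, -0.95 for *salm*, -0.68 for *salr* and 0.35 for *vg*, and 0 of the 10 genes were lower by 2-fold. With estimated reads per 1000000 in place of TPM it was -1.56 for *salr*, 0.36 for *exd*, 0.59 for *hth*, 0.50 for *sd*, -0.42 for *Mef2* and -0.19 for *bru1*, and 2 companion genes were lower. With *bs* KD divided by the median ratio it was -1.39 for *salm*, -0.66 for *Mef2* and -0.41 for *bru1*. With the median of each of 20 gene length classes removed it was -0.61 for *Mrtf*, -1.05 for *salm*, -1.14 for *salr*, 0.61 for *hth* and -0.38 for *Mef2*. Companion genes lower by 2-fold numbered 2 without genes of the mitochondrial genome and 0 without *Act88F*, and 3 were lower at a size of 1.5-fold. The moves with the pseudocount, the size and without *Act88F* follow from how those settings are built, and the cause of the others was not tested.

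The share of detected genes past 2-fold also depended on the setting. It was 14.2% higher and 10.7% lower with a pseudocount of 0.1 TPM, 14.9% and 11.4% with none, 4.1% and 2.13% with 5 TPM, and 6.04% and 3.89% over all genes above 0. At a size of 1.5-fold it was 21.3% higher and 15.1% lower.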
